A study of Mus musculus with 6 samples.

Results

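The 9 genes described here encode proteins that store, carry, oxidise and clear retinoids, the vitamin A compounds. They are Retsat, Lrat, Rbp4, Sdr16c5, Rdh10, Rdh11, Dhrs3, Aldh1a1 and Cyp26a1, and the members are all probe sets annotated to 1 of these symbols alone, which gave 13 of the 45037 non-control probe sets (9 of 18193 named genes). The genes were chosen with the differences between LIGHT Tg and WT livers in these same arrays already known, so for the 9 genes that difference is a description with its error, with no p-value, and counts past a threshold are given without anything being read from them.

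Liver RNA was measured after 2 weeks of a high-fat diet (TD88137) in 3 LIGHT Tg samples and 3 WT samples. LIGHT, the product of Tnfsf14, is a cytokine of the tumour necrosis factor family, and the WT samples are labelled B6. All mice were between 4 and 8 weeks old, and all 6 received the diet, so no liver on a standard diet was measured. The genotype follows the titles and source names, because the free-text description calls every sample wild type. The labels do not give the promoter of the transgene, the cells it is active in or the strain of the LIGHT Tg mice, so transgene and genetic background cannot be told apart. Nothing in the labels says that the 3 samples of a group are separate animals, and each p-value measures the spread between these samples, which may be technical.

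Dietary vitamin A reaches the liver mainly as retinyl esters in chylomicron remnants, which hepatocytes hydrolyse. Retinol passes to stellate cells, where Lrat esterifies it again for storage. Hepatocytes secrete retinol bound to Rbp4. Retinol is reversibly oxidised to retinal, and retinal is oxidised irreversibly to retinoic acid, the ligand of the nuclear retinoic acid receptors. Retinoic acid induces genes of its own removal, among them Cyp26a1, which hydroxylates it.

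The sequences of 2 promoters are given because Cyp26a1 is a classic target of retinoic acid and Retsat had the lowest LIGHT Tg signal relative to WT of the 9 genes. Each is the stretch of 250 bases before the gene's start in RefSeq, build GRCm38.p6, on the plus strand, at chr19:37697558-37697807 for Cyp26a1 and at chr6:72598352-72598601 for Retsat. Capitals mark a pair of half-sites read by retinoic acid receptors, found on the minus strand.
Cyp26a1: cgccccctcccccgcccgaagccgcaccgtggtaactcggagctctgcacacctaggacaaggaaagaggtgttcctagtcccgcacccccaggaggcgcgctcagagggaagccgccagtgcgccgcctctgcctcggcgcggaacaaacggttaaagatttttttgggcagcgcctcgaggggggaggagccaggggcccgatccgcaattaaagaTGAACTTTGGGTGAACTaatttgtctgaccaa
Retsat: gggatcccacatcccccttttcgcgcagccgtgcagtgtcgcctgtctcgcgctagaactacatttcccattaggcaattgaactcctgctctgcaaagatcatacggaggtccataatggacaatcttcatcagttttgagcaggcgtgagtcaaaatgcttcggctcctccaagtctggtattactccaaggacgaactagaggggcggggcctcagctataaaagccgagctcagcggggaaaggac
The motif searched was a direct repeat, with 5 bases between, of half-sites that read AGGTCA or else AGTTCA or else GGGTCA or else GGTTCA, on both strands of windows from 250 bases before to 50 after each start. It was found in 32 of 32851 promoters (0.0974%). Among the 9 genes, 7 had a promoter in the table (12 windows), and Cyp26a1 alone of them held the motif, from 32 to 16 bases before its start. Sdr16c5 and Rdh10 were not in the table. Among 45 other retinoid genes with a promoter, the motif was found in Rarb, which encodes a retinoic acid receptor, in the window below from chr14:16575493-16575549 on the minus strand.
Rarb: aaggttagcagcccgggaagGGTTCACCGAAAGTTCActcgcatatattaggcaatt
Direct repeats of the same half-sites with 2 bases between were in 0.268% of promoters and in none of these genes. With 1 base between they were in 0.222% of promoters and in 1 retinoid gene outside the 9, Bco1. A match of letters is a description and does not show that a receptor binds there.

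The 6 arrays fell into 2 sets by the number in their titles. LIGHT Tg 1 and WT 1 are titled 77 and 78, and the other 4 arrays are titled between 30 and 35. Xist, a noncoding RNA made from an inactive X chromosome, had signals of 407 and 444 on the first set and between 7993 and 9714 on the second. Eif2s3y, a Y-linked gene, had 41.5 and 62.6 on the first set and between 4.40 and 29.6 on the second, low signals on all 6 arrays. The labels used here give no sex, and what the title number marks is unknown. Each set holds both genotypes, and differences within each set are given beside those over all 6 arrays. The probe sets of Tnfsf14 lay below the filter on low signal. At the brighter of its probe sets LIGHT Tg livers had 55.7, 19.3 and 26.7, against 7.70, 11.9 and 7.43 in WT livers. At the dimmer one the groups overlapped, with 2.30, 3.10 and 5.60 in LIGHT Tg livers, against 4.25, 3.75 and 7.83 in WT livers. The labels do not say which part of the gene the transgene carries.

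**Figure D1:**
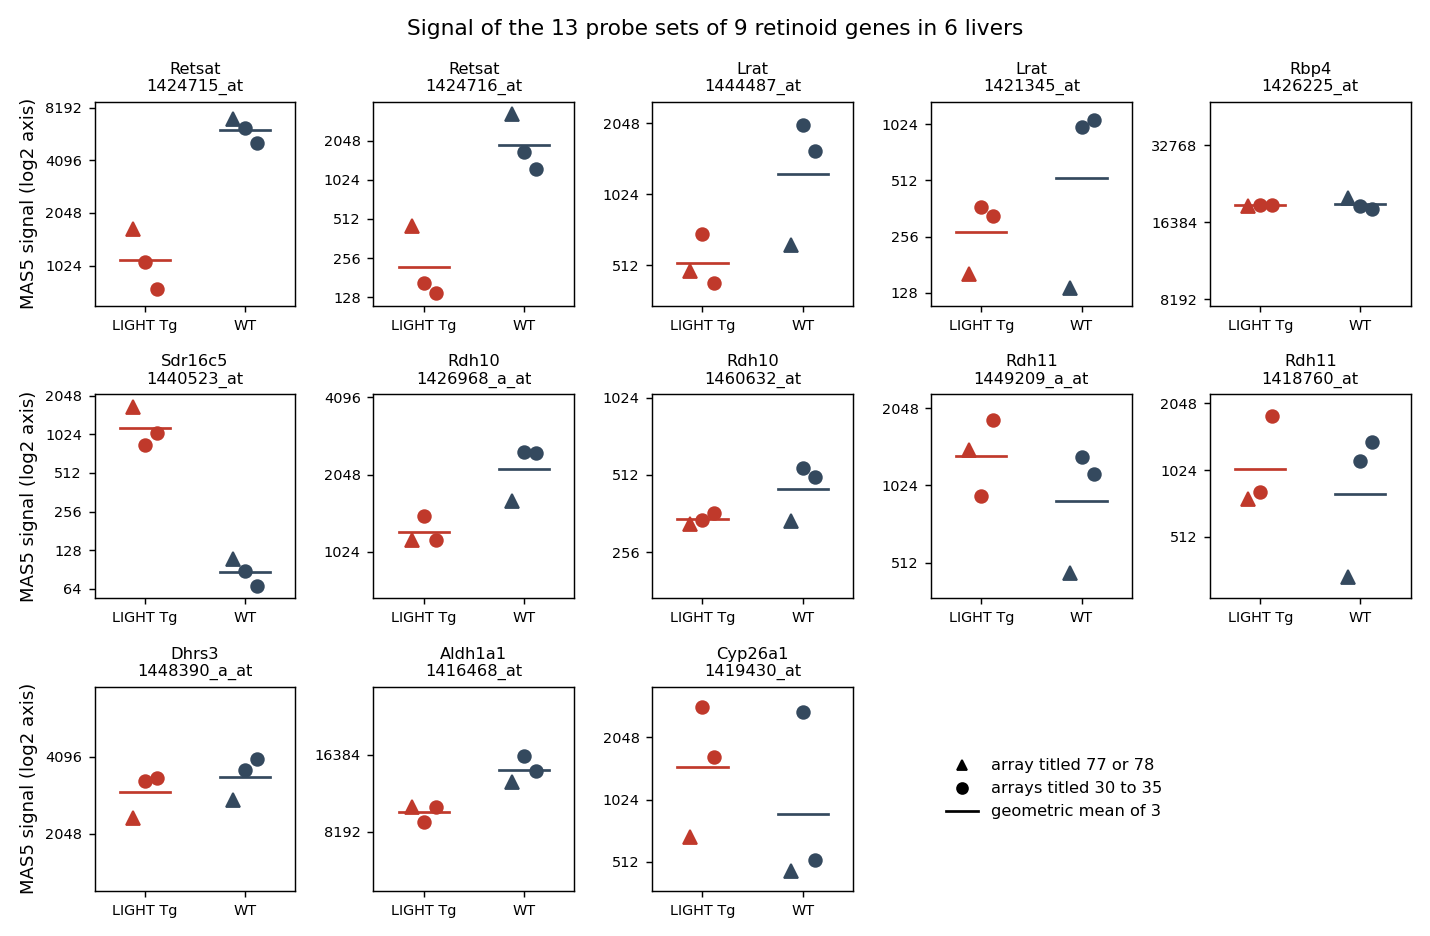
MAS5 signal (log2 axis) of each of the 13 probe sets in 3 LIGHT Tg and 3 WT livers, with triangles for the arrays titled 77 or 78, circles for the arrays titled 30 to 35 and a line at the geometric mean of each group. Retsat and Sdr16c5 separate the genotypes on opposite sides, Rbp4 is nearly level on all 6 arrays, and in Lrat and Rdh11 the WT triangle lies far below the WT circles.

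Retsat and Sdr16c5 had the widest gaps between the genotypes, in opposite directions, while the other 7 genes differed less or overlapped. Signals are MAS5 values. A difference is the mean log2 signal of LIGHT Tg less that of WT, given with its moderated standard error (SE) from a limma fit across all tested probe sets. All 13 probe sets passed the filter of a mean log2 signal at or above 7.39. In that fit 3 of the 13 were past 5% FDR (the false discovery rate, by Benjamini-Hochberg adjustment), 1 higher and 2 lower in LIGHT Tg livers. Of all 22519 probe sets tested, 1.17% were past it (0.715% higher, 0.457% lower), and nothing is read from the members' count because this difference was known when they were chosen. With the title-number set as a block 5 of the 13 were past 5% FDR, against 6.47% of all probe sets. The median difference at the brightest probe set of each of the 9 genes was -0.20, against -0.01 over all probe sets tested.

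Retsat, retinol saturase, turns retinol into dihydroretinol and is known as a gene that responds to peroxisome proliferator-activated receptors. At the brighter of its 2 probe sets its signal was 1666, 1076 and 755 in LIGHT Tg livers, against 7062, 6235 and 5145 in WT livers. Every LIGHT Tg value lay well below every WT value. The group means were 10.11 ± 0.57 in LIGHT Tg and 12.57 ± 0.23 in WT on the log2 scale (SD, n = 3 each), a difference of -2.46 ± 0.290, or 5.51-fold lower in LIGHT Tg. The dimmer probe set had 454, 165 and 137 in LIGHT Tg livers, against 3254, 1688 and 1246 in WT livers. The 2 probe sets gave the same direction, with -3.12 ± 0.522 at the dimmer one, but both are annotated to the same source sequence. At the dimmer one LIGHT Tg 2 and LIGHT Tg 3 lay below the filter signal of 167.4, which makes that difference less certain. On the arrays titled 77 and 78 the differences were -2.08 and -2.84 at the brighter and the dimmer probe set, and on the others they were -2.65 and -3.27.

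Lrat, lecithin retinol acyltransferase, forms the retinyl esters that stellate cells store. At the brighter of its 2 probe sets the signals were 485, 692 and 430 in LIGHT Tg livers, against 624, 2017 and 1554 in WT livers. The groups overlapped because WT 1 lay within the range of the LIGHT Tg livers. At the dimmer one they were 162, 368 and 330 in LIGHT Tg livers, against 136, 987 and 1081 in WT livers, so that WT 1 was the lowest of all 6 arrays. The differences over all arrays were -1.25 ± 0.436 and -0.96 ± 0.792, at the brighter and the dimmer probe set. On the arrays titled 30 to 35 the signal was lower in both LIGHT Tg livers than in both WT livers, with differences of -1.70 and -1.57. On the arrays titled 77 and 78 the differences were -0.36 and 0.25. The test of whether the 2 sets differ in the genotype difference, the interaction term of the limma fit, gave 1.34 ± 0.457 (adjusted p = 0.377) and 1.82 ± 0.286 (adjusted p = 0.110), neither past 5% FDR. Leaving out WT 1 moved the dimmer probe set to -1.94, and leaving out WT 3 moved it to -0.44.

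Markers of stellate cells were measured beside Lrat. In bulk liver, fewer cells of a type and less RNA per cell cannot be told apart. Of 17 stellate cell genes all were tested, and in the limma fit 0 were past 5% FDR, 1 had an unadjusted p below 0.05, and 0 were past 5% FDR with the block. Their median difference was -0.01, with 0.06 on the arrays titled 77 and 78 and -0.10 on the others. The summed signal of the 17 genes lay between 29784 and 31377 in LIGHT Tg livers and between 27312 and 32550 in WT livers, so the groups overlapped. Decorin, Dcn, a matrix proteoglycan, had 8119, 8843 and 8535 in LIGHT Tg livers, against 6853, 10177 and 8949 in WT livers. Colec11, a secreted collectin, had 4376, 5738 and 4982 in LIGHT Tg livers, against 3326, 5302 and 5387 in WT livers. Both genes overlapped between the groups. Of the 17 genes 3 did not overlap, against 17.4% of all probe sets tested, and they were named after their values were seen. Rgs5 and Gfap were higher in LIGHT Tg, by 0.46 ± 0.166 and 0.36 ± 0.228, and Cygb was lower, with -0.41 ± 0.210. The part of other stellate cell properties in the Lrat signal was not tested.

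**Figure D2:**
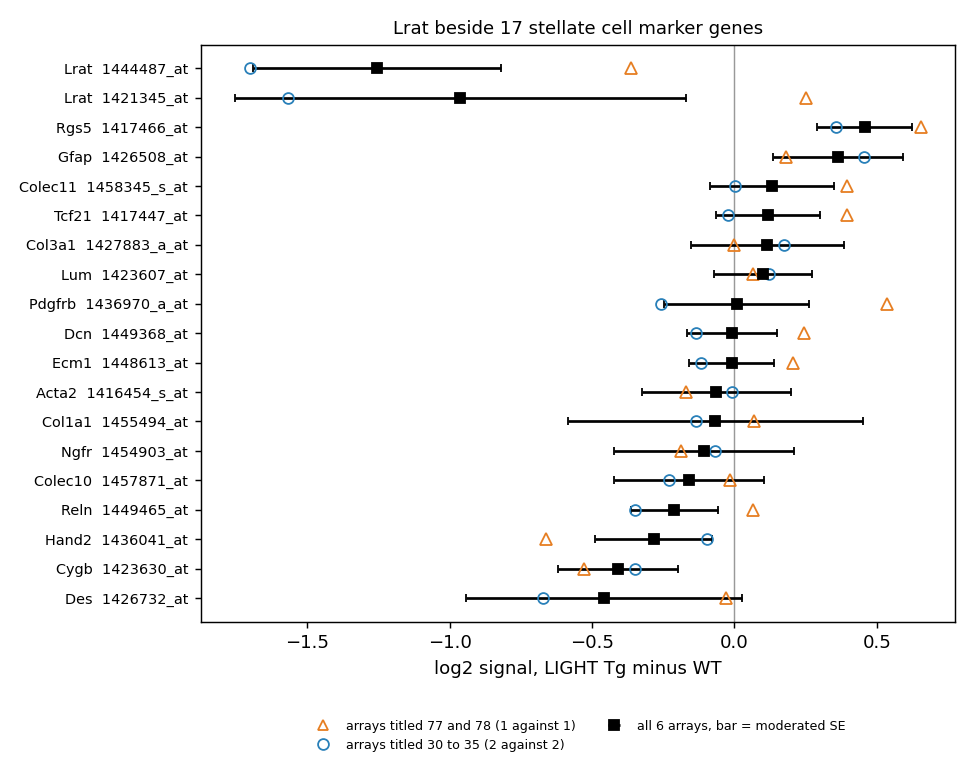
Log2 difference in signal, LIGHT Tg minus WT, for the 2 probe sets of Lrat and the brightest probe set of each of 17 stellate cell genes, as squares with the moderated SE over all 6 arrays, triangles for the arrays titled 77 and 78 and circles for those titled 30 to 35. The circles of Lrat lie at -1.70 and -1.57. Those of the stellate cell genes have a median of -0.10 and run from -0.67 (Des) to 0.45 (Gfap). The triangles of Lrat lie at -0.36 and 0.25, and the median of the triangles of the stellate cell genes is 0.06.

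Rbp4, the carrier that takes retinol from liver into blood, was the least variable of the 9 genes. Its signals were 18947, 19141 and 19088 in LIGHT Tg livers, against 20314, 19022 and 18381 in WT livers, with a difference of -0.01 ± 0.084 that was -0.10 on the arrays titled 77 and 78 and 0.03 on the others. All LIGHT Tg values lay within the WT range. The highest signal on any of the 6 arrays was 28859, and whether probe sets as bright as that of Rbp4 still respond in proportion was not tested. Transthyretin, Ttr, which binds Rbp4 in blood, also differed by -0.01 (adjusted p = 0.995 in the limma fit).

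The enzymes that form retinal from retinol went different ways. Sdr16c5, a short-chain dehydrogenase known as an epidermal retinol dehydrogenase, had 1681, 851 and 1056 in LIGHT Tg livers, against 110, 87.8 and 67.2 in WT livers. The lowest LIGHT Tg value was several times the highest WT value. The group means were 10.16 ± 0.50 in LIGHT Tg and 6.43 ± 0.35 in WT on the log2 scale (SD, n = 3 each), a difference of 3.73 ± 0.319, or 13.3-fold higher in LIGHT Tg. The difference was 3.94 on the arrays titled 77 and 78 and 3.63 on the others. The WT mean was below the filter level, so the probe set was tested only through its LIGHT Tg signal, and a WT signal this low makes the fold less certain. With an offset of 37.5 added before the log the difference was 3.25.

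Rdh10, the retinol dehydrogenase that limits retinoic acid formation in the mouse embryo, was lower in LIGHT Tg at its brighter probe set. At that probe set the signals were 1134, 1414 and 1143 in LIGHT Tg livers, against 1619, 2503 and 2489 in WT livers, and the groups did not overlap. The difference was -0.82 ± 0.217, with -0.51 on the arrays titled 77 and 78 and -0.97 on the others. At the dimmer one the signals were 329, 341 and 364 in LIGHT Tg livers, against 338, 543 and 505 in WT livers. WT 1 again lay among the LIGHT Tg values there, and the difference was -0.39 ± 0.233, with -0.04 on the arrays titled 77 and 78 and -0.57 on the others. It was -0.61 without WT 1 and -0.26 without WT 2.

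The genes for enzymes that return retinal to retinol did not separate the genotypes. Rdh11, a retinal reductase of liver and other tissues, had 1401, 929 and 1839 in LIGHT Tg livers, against 468, 1319 and 1130 in WT livers at its brighter probe set. At its dimmer one it had 761, 817 and 1797 in LIGHT Tg livers, against 338, 1121 and 1365 in WT livers. WT 1 was the lowest array at both probe sets, and the groups overlapped. The differences were 0.59 ± 0.429 and 0.37 ± 0.571 at the brighter and the dimmer probe set. On the arrays titled 77 and 78 they were 1.58 and 1.17, and on the others they were 0.10 and -0.03. Without WT 1 they were 0.13 and -0.25. Dhrs3, a retinal reductase that is itself induced by retinoic acid, had 2351, 3284 and 3390 in LIGHT Tg livers, against 2771, 3621 and 3994 in WT livers. Its groups overlapped, with a difference of -0.20 ± 0.207 that was -0.24 on the arrays titled 77 and 78 and -0.19 on the others. It was -0.04 without LIGHT Tg 1, -0.09 without WT 3 and -0.36 without WT 1.

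Aldh1a1, a cytosolic dehydrogenase that oxidises retinal to retinoic acid, was lower in every LIGHT Tg liver. Its signals were 10232, 8983 and 10209 in LIGHT Tg livers, against 12864, 16180 and 14166 in WT livers. The groups did not overlap, and the difference was -0.55 ± 0.121, with -0.33 on the arrays titled 77 and 78 and -0.66 on the others. Its close paralog Aldh1a7, which is not among the 9 genes, had 17630, 19925 and 19239 in LIGHT Tg livers, against 9090, 9524 and 9393 in WT livers. Aldh1a7 rose by 1.02 ± 0.094 in the limma fit (adjusted p = 0.00563), with 0.96 on the arrays titled 77 and 78 and 1.05 on the others. Without LIGHT Tg 3 its adjusted p was 0.0602. Whether probes of either gene also bind the other's transcript was not tested.

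Cyp26a1, the retinoic acid hydroxylase, varied more within each group than between them. Its signals were 678, 2881 and 1647 in LIGHT Tg livers, against 463, 2723 and 521 in WT livers. LIGHT Tg 2 and WT 2 were the highest of the 6 arrays, and the groups overlapped. The difference was 0.76 ± 0.773, with 0.55 on the arrays titled 77 and 78 and 0.87 on the others. It was 0.28 without LIGHT Tg 2 and 1.59 without WT 2. Rarb, the other gene with the repeat of half-sites shown above, had 243, 682 and 614 in LIGHT Tg livers, against 240, 514 and 372 in WT livers, with a difference of 0.38 ± 0.455 (adjusted p = 0.885 in the limma fit).

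**Figure D3:**
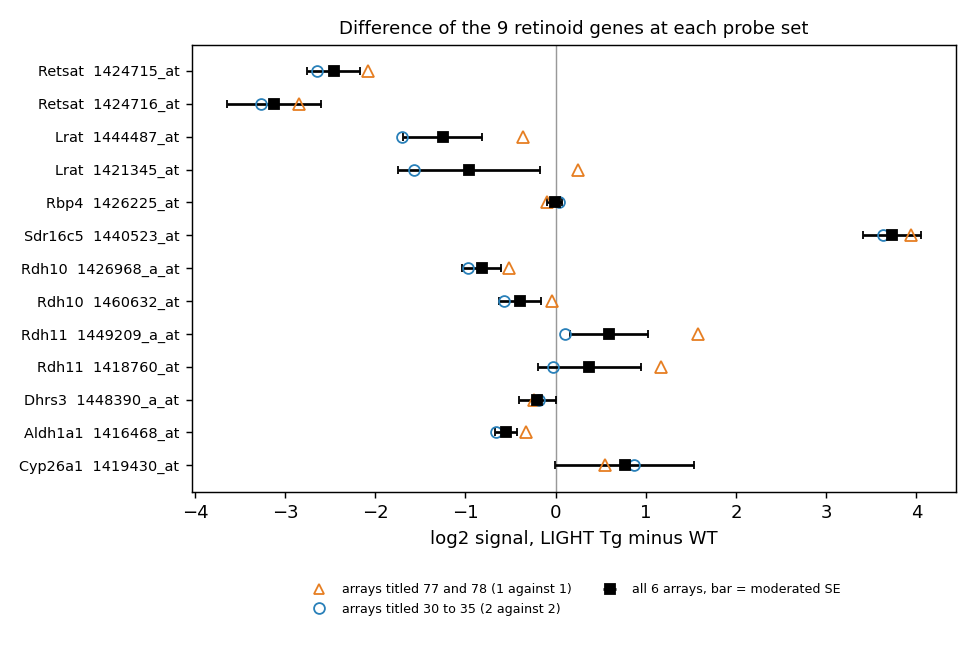
Log2 difference in signal, LIGHT Tg minus WT, at each of the 13 probe sets, as squares with the moderated SE over all 6 arrays, triangles for the arrays titled 77 and 78 (1 against 1) and circles for those titled 30 to 35 (2 against 2). Retsat lies at -2.46 and -3.12, Sdr16c5 at 3.73 and Rbp4 at -0.01, and the triangle and circle of Lrat and Rdh11 stand farther apart than those of Retsat or Sdr16c5.

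The difference between the 2 title-number sets played no part in the choice of the genes and was tested with genotype in the same limma fit. Of the 13 probe sets 5 passed 5% FDR between the sets, 2 higher and 3 lower on the arrays titled 77 and 78, against 27.4% of all probe sets tested (11.7% higher, 15.7% lower). Lrat at its dimmer probe set fell by 2.01 (SE 0.371, adjusted p = 0.0101) on the arrays titled 77 and 78 relative to the others. That value averages unlike differences. LIGHT Tg 1 had 162, against 368 and 330 on the other LIGHT Tg arrays. WT 1 had 136, against 987 and 1081 on the other WT arrays. On the arrays titled 77 and 78 Dhrs3 fell by 0.48 (SE 0.099, adjusted p = 0.0141). Rdh11 at its dimmer probe set fell by 1.27 there (SE 0.368, adjusted p = 0.0413). Retsat at its dimmer probe set rose by 1.38 ± 0.190 (adjusted p = 0.00418) and Sdr16c5 by 0.67 ± 0.199 (adjusted p = 0.0441) on the arrays titled 77 and 78. The count of 5 includes Sdr16c5, whose probe set passed the filter only through its LIGHT Tg signal. Its test includes WT signals with a mean below the filter level, so nothing is read from it. Cyp26a1 had -1.52 ± 0.589 (adjusted p = 0.0930) and Rbp4 0.05 ± 0.062 (adjusted p = 0.544). Without WT 1 the number of probe sets past 5% FDR was 2.

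The genotype difference was not shown to differ between the sets for any of the 9 genes. In the limma fit with the interaction term, which leaves 2 residual degrees of freedom, 0 of 13 probe sets passed 5% FDR, with adjusted p between 0.110 and 0.948, against 0.0666% of all probe sets. An unadjusted p below 0.05 was reached by 3 of the 13, 2 of Lrat and 1 of Rdh11, against 11% of all probe sets. A miss in so small a fit does not show that the sets are alike.

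Other genes of retinoid metabolism were taken from a list of 58 that leaves out the 9, of which 53 were measured and 39 passed the filter. In the limma fit 2 of the 39 rose, 1 fell and 36 did not pass. An unadjusted p below 0.05 was reached by 16 of the 39, against 11% of all probe sets tested for LIGHT Tg against WT. With the title-number set as a block 5 rose and 7 fell, against 3.26% higher and 3.21% lower among all probe sets. The list was chosen with earlier results of these data known, so nothing is read from these counts or from those by role below. The median of the 39 was -0.02, against -0.01 over all probe sets.

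The genes of carotenoid cleavage had opposite directions. Bco1, which splits beta-carotene into retinal, had 1660, 1074 and 1197 in LIGHT Tg livers, against 455, 356 and 528 in WT livers. It rose by 1.55 ± 0.239 (adjusted p = 0.0355), and its groups did not overlap. Its call was lost without any 1 of the 6 arrays, with adjusted p between 0.0555 without WT 1 and 0.156 without LIGHT Tg 3. Bco2, which cleaves carotenoids off centre, had 477, 627 and 479 in LIGHT Tg livers, against 852, 1145 and 906 in WT livers, a difference of -0.88 ± 0.203 (adjusted p = 0.122, and 0.0241 with the block).

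Among 13 tested oxidoreductases of retinol and retinal, Adh4, an alcohol dehydrogenase that also oxidises retinol, fell and 12 did not pass. Its signals were 2085, 2598 and 2743 in LIGHT Tg livers, against 5177, 5387 and 6830 in WT livers. It fell by 1.23 (SE 0.171, adjusted p = 0.0249), and the call was lost without LIGHT Tg 2, LIGHT Tg 3, WT 2 or WT 3 (adjusted p between 0.0935 and 0.109). Rdh9 had 8191, 12356 and 11247 in LIGHT Tg livers, against 3712, 6346 and 6883 in WT livers, a difference of 0.94 ± 0.265 (adjusted p = 0.208, and 0.00328 with the block). The other 3 with an unadjusted p below 0.05 were named after their values were seen. Rdh13 had 121, 220 and 98.7 in LIGHT Tg livers, against 343, 299 and 273 in WT livers, a difference of -1.14 ± 0.344 (adjusted p = 0.244, and 0.0895 with the block). Adh7 had 0.64 ± 0.207 (adjusted p = 0.281, and 0.0808 with the block). Rdh16 had 1.45 ± 0.509 (adjusted p = 0.332, and 0.0146 with the block). Rdh9 and Rdh16 belong to a cluster of close paralogs, and which member a probe set measures is uncertain.

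Of 8 genes that make or hydrolyse retinyl esters and other neutral lipids, 0 passed in the limma fit, 3 had an unadjusted p below 0.05 (11% of all probe sets did), and with the block 1 rose and 2 fell. Pnpla3, a lipase that also acts on retinyl esters in human stellate cells, had 1425, 3818 and 1781 in LIGHT Tg livers, against 478, 843 and 554 in WT livers. Its groups did not overlap, with a difference of 1.81 ± 0.393 (adjusted p = 0.0999, and 0.0158 with the block). Ces1d, a carboxylesterase of hepatocytes, had -0.90 ± 0.297 at its brightest probe set (adjusted p = 0.294, and 0.00339 with the block). Its groups overlapped at its other probe sets, with -0.67 ± 0.261 and -1.01 ± 0.633 (adjusted p = 0.0286 and 0.0533 with the block). Lipa, lysosomal acid lipase, also named after its values were seen, had -0.46 ± 0.156 (adjusted p = 0.318, and 0.0281 with the block), while its other tested probe sets had 0.05 and -0.51.

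None of the tested genes of transport, clearance, receptors or response passed in the limma fit over 6 arrays, where 0 of 4, 1 of 2, 1 of 4 and 3 of 4 had an unadjusted p below 0.05, against 11% of all probe sets. Scarb1, a lipoprotein and carotenoid receptor, had -0.30 ± 0.155 at its brightest probe set, where the groups overlapped. Its other probe sets had -0.53 ± 0.137 and -0.50 ± 0.136, without overlap. Their adjusted p was 0.170 and 0.186, and 0.0281 and 0.0362 with the block. The binding protein Fabp5 had 0.89 ± 0.505, and 1.32 ± 0.710 at its dimmer probe set. Cyp2c39, a P450 with retinoic acid hydroxylase activity in mouse liver, had -1.22 ± 0.328 (adjusted p = 0.185, and 0.04996 with the block), with -0.28 on the arrays titled 77 and 78 and -1.68 on the others. Cyp2s1 had 0.26 ± 0.228. Rxra, the partner of many nuclear receptors in liver, had -0.45 ± 0.149 (adjusted p = 0.290, and 0.0625 with the block). Rarres2, which encodes the secreted protein chemerin, had 1816, 4696 and 2398 in LIGHT Tg livers, against 8216, 9070 and 6907 in WT livers. All its LIGHT Tg values lay below all its WT values, with a difference of -1.55 ± 0.331 (adjusted p = 0.0965, and 0.0247 with the block). Rarres1, named after its values were seen, had -1.17 ± 0.389 (adjusted p = 0.297, and 0.0149 with the block), while the transglutaminase Tgm2 had 0.62 ± 0.186 (adjusted p = 0.237, and 0.0520 with the block) at its brightest probe set. The other 4 tested probe sets of Tgm2 had differences between 0.06 and 0.41. Aldh8a1, an aldehyde dehydrogenase that acts on retinal, had -0.08 ± 0.160.

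Among the 14 measured pathway genes below the filter on low signal, 2 had groups that did not overlap, against 10.1% of all probe sets below the filter. They were chosen after their values were seen and were not tested. Rdh1, a retinol dehydrogenase of the same paralog cluster as Rdh9 and Rdh16, had signals of 77.9, 592 and 281 in LIGHT Tg livers, against 46.4, 45.7 and 76.3 in WT livers. Ppard, a nuclear receptor that can be activated by retinoic acid, had 177, 252 and 275 in LIGHT Tg livers, against 57.1, 51.0 and 102 in WT livers. The log2 differences were 2.11 ± 0.720 for Rdh1 and 1.79 ± 0.404 for Ppard from a fit without the filter.

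**Figure D4:**
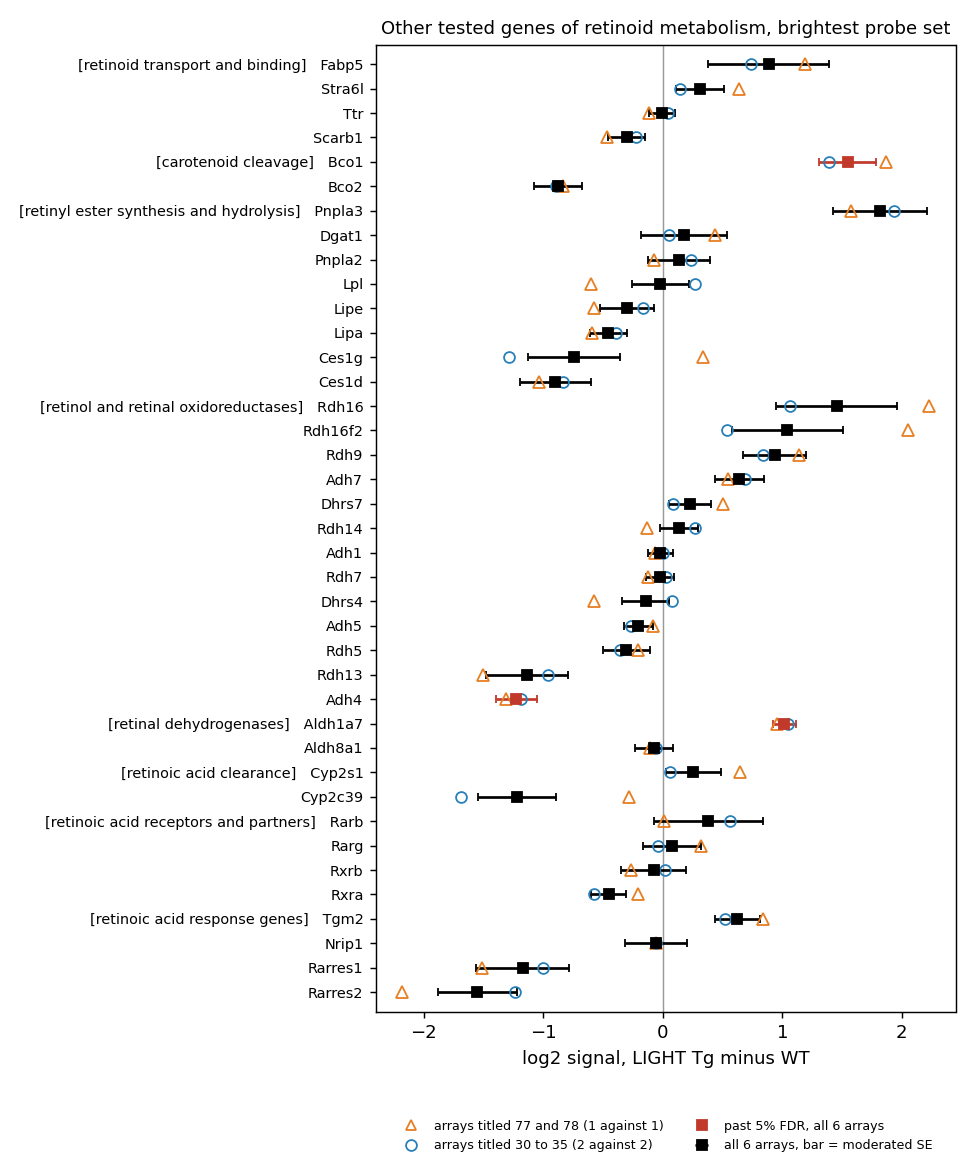
Log2 difference in signal, LIGHT Tg minus WT, of the 39 tested genes of retinoid metabolism outside the 9, grouped by role, as squares with the moderated SE over all 6 arrays (red past 5% FDR), triangles for the arrays titled 77 and 78 and circles for those titled 30 to 35. Bco1 at 1.55 and Aldh1a7 at 1.02 are the red squares on the right, and Adh4 at -1.23 is the red square on the left.

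Markers of other liver cells were set beside these genes. Of 8 hepatocyte genes 0 passed in the limma fit and 0 had an unadjusted p below 0.05 (median -0.02), with summed signals between 132707 and 146479 in LIGHT Tg livers and between 140743 and 146131 in WT livers. The brightest of them were Apoa1 and Ttr, with adjusted p of 0.999 and 0.995. Whether probe sets as bright as these still respond in proportion was not tested. Of 8 Kupffer cell and macrophage genes 0 passed and 0 had an unadjusted p below 0.05 (median -0.07), with sums between 20049 and 32345 in LIGHT Tg livers and between 28858 and 32890 in WT livers. Of 8 endothelial genes 1 rose, the hyaluronan receptor Lyve1, by 1.24 ± 0.1998 (adjusted p = 0.0393), and 7 did not pass (median 0.22). An unadjusted p below 0.05 was reached by 2 of the 8, against 11% of all probe sets. With the block 2 rose, against 3.26% of all probe sets. Stab2 had 0.75 ± 0.176, without overlap (adjusted p = 0.125 in the limma fit, and 0.0127 with the block). Clec4g, the brightest of the 8, had 0.36 ± 0.175, without overlap (adjusted p = 0.529 in the limma fit, and 0.226 with the block). Of the 8 genes 3 did not overlap, against 17.4% of all probe sets tested. The endothelial sums lay between 11459 and 14018 in LIGHT Tg livers and between 8135 and 9694 in WT livers, without overlap, and their part in the differences of the retinoid genes was not tested. Of bile duct, adipocyte and T cell genes 2, 1 and 1 were tested and 0 passed. Retn, the adipocyte gene that was tested, had 517, 326 and 257 in LIGHT Tg livers, against 547, 263 and 154 in WT livers. Adiponectin, Adipoq, lay below the filter. It had signals of at most 37.5 in LIGHT Tg livers and between 39.0 and 83.5 in WT livers, without overlap.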

How the data were processed

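Liver RNA of 3 LIGHT Tg and 3 WT samples was hybridised to 1 Affymetrix array each. The deposited intensities are MAS5 signals on a linear scale, 1 per probe set, per the submitters' processing notes. The notes give no version or scaling target, and without detection calls no probe set was called absent. The number of arrays limits the precision, and 3 against 3 arrays cannot give an exact permutation p below 0.1. Median signals lay between 175 and 183.

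Genes were named from the platform annotation, checked through gene IDs against RefSeq GRCm38.p6, which changed 0 symbols. Of 45037 non-control probe sets (64 controls were left out) 34945 had 1 symbol, 932 several and 9160 none. Signals below 1 (106 values) were set to 1 before log2. Probe sets with a mean log2 signal at or above the median of 7.39 were tested, 22519 in all. The genotypes were compared with limma 3.58.1 in R 4.3.3 (lmFit, eBayes with trend, two-sided) with Benjamini-Hochberg adjustment over all of them and a threshold of 5% FDR. Title-number set was added as a term for the block, the set difference and the interaction. For genes with several probe sets outside the 9, the brightest was used. The steps were tested on simulated data.

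The members and lists were chosen with earlier results of these data known. The genes named are the 9 at every probe set, the transgene, pathway genes past 5% FDR and the 2 with the largest moderated statistic in each role, and from each cell type list those past 5% FDR and the 2 brightest. Rdh13, Adh7, Rdh16, Lipa, Rarres1, Rdh1, Ppard, Rgs5, Gfap and Cygb fall outside this rule and were named after their values were seen. Not all the markers that the rule takes are described. Genes of the pathway list that were not matched to a probe set were not analysed here. Alternatives were the filter, an offset of 37.5 (20th percentile of signals), quantile or median scaling, eBayes without trend or robust, array weights, the block, the arrays titled 30 to 35 alone, each array left out, and the mean of a gene's probe sets. Promoter sequences are from RefSeq. Plots were made in Python 3.11.15 with matplotlib 3.10.9.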

Additional observations from a re-analysis of the deposited data

How the results depend on the processing

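The calls depend on how the title-number sets are treated and on single arrays; the cause was not tested. Over all probe sets 264 passed 5% FDR, against 148 with eBayes without trend, 1992 with array weights, 1457 with the block and 956 on the arrays titled 30 to 35 alone, and between 43 (without LIGHT Tg 3) and 306 (without WT 1) with 1 array left out. Of the pathway genes 3 passed, against 0 with eBayes without trend, 16 with array weights (7 higher, 9 lower), 12 with the block and 8 on the arrays titled 30 to 35, and between 0 (without LIGHT Tg 3) and 3 with 1 array left out. Of the member probe sets 3 were past the threshold, against 7 with array weights, 5 with the block, 7 on the arrays titled 30 to 35, and between 1 and 4 (without WT 1) with 1 array left out. Between the title-number sets 5 of 13 passed, 3 of 13 with no filter, 3 of 10 with the filter at the 75th percentile, 6 of 13 with quantile normalization, and between 2 (without WT 1) and 5 with 1 array left out; the interaction stayed at 0 in the alternatives run. Retsat kept its sign at the brighter probe set in 17 of 17 alternatives (-2.79 to -2.19). Sdr16c5 kept its sign in 16 of 16 (3.25 to 3.94). Lrat kept its sign at the brighter probe set in 17 of 17 (-1.76 to -0.91). The filters, the eBayes variants and the block leave a difference unchanged. For Retsat and Sdr16c5 the groups did not overlap, so no left-out array could reverse the sign. Nothing is read from the signs kept. No paired analysis was possible because the labels give no replicate number; the numbers 1 to 3 used here follow the order of deposit and pair no samples. Without detection calls a low signal has no stated bound.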
